A study of Mus musculus with 24 samples.

Results

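Selective autophagy was followed through 10 genes in mouse bone marrow-derived macrophages, 24 cultures of 2 genotypes in 3 activation states. The genes were taken by name from the gene spots of the arrays, whatever their values, and were read by 23 of 56605 gene probes, of which 22 lay among the 38856 probes bright enough to be tested. They were 10 of the 25825 genes tested. Sqstm1 encodes the cargo receptor p62, Map1lc3a, Map1lc3b, Gabarap, Gabarapl1 and Gabarapl2 the ATG8 family, and Ulk1, Becn1, Wipi1 and Atg5 enzymes and scaffolds that build the autophagosome. KO macrophages were Slc2a1M-/-, in which LysMCre, a Cre recombinase driven from the lysozyme locus Lyz2 of myeloid cells, is meant to delete the floxed glucose transporter gene Slc2a1 (GLUT1), and WT macrophages came from Slc2a1 fl/fl floxed controls, per the labels. Both genotypes thus carried the floxed allele. All cultures were grown for 6 days in 20 ng/ml M-CSF, which drives marrow progenitors to become macrophages. M1 cells then received 5 ng/ml LPS and 10 ng/ml IFNγ for 24 h, M2 cells received 10 ng/ml IL-4 for 24 h, and M0 cells were left untreated. Each of the 6 groups held 4 biological replicates, and each replicate was hybridised to 1 Agilent array in 1 colour.

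In autophagy, a cup-shaped membrane closes round cytoplasm and delivers it to the lysosome. The ULK1 kinase complex starts the process, the lipid kinase complex that holds Beclin 1 marks the membrane, WIPI proteins read that mark, and ATG5, joined to ATG12, helps to attach ATG8 proteins (the LC3 and GABARAP proteins) to the membrane lipid. Cargo receptors such as p62 bind ubiquitin with one end and ATG8 proteins with the other, and macrophages use them to clear bacteria and damaged organelles. The p62 and ATG8 proteins are themselves degraded or processed on the way, so the RNA levels given here are not a measure of how much autophagy took place.

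Levels below are log2 intensities relative to the 75th percentile of the array, so a difference of 1 is a 2-fold change, and they were compared between groups within a probe, never between probes. Differences are given ± the standard error of a limma fit over all 24 arrays, p-values were adjusted by Benjamini-Hochberg over all genes tested, and a gene was called where the adjusted p was under 0.05. The 75th percentile was 2291 to 4905 intensity units over the arrays and lowest in KO M1, at 2291 to 2545 against 2810 to 3795 in WT M1, and no gene spot was saturated. All 8 macrophage markers (such as Adgre1 and Csf1r) were well above background on every array. The arrays made up 4 sets that each held every group once. One set was assembled from pairs left over on the 3 slides. Where a slide held 2 arrays of a group, the one without the Y-linked gene Ddx3y well above background went into it. Ddx3y was well above background on 0 of 6 arrays of this set and on 18 of 18 others, which that rule partly fixed. The set also stood apart by sex-linked genes that the rule did not use. Eif2s3y and Uty were well above background on 0 of its 6 arrays and on all others. Xist was on 6 of 6, against 0, 0 and 2 of 6 in the other sets. The Cre-bearing locus was lower in KO, since for Lyz2 KO minus WT was -2.67 in M0 (adjusted p = 0.0025), -3.33 in M1 (adjusted p = 4.18e-07) and -4.00 in M2 (adjusted p = 1.21e-05), each ± 0.38 and with no overlap of the arrays. For Slc2a1 itself the difference was not called in any state, with -0.34 ± 0.34 in M0 and -0.14 ± 0.34 in M2 (both adjusted p = 1.00) and 0.30 ± 0.34 in M1 (adjusted p = 0.508). The labels do not say which part of Slc2a1 is deleted, so its probe does not check them.

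The sequences of 3 probes are shown because they read the coding part of the messages whose changes are described first, beside a brighter probe near the end of each transcript. The Sqstm1 probe (mm9, chr11:50015985-50016044, minus strand) covers codons just behind the LC3-interacting region, the stretch of p62 that binds ATG8 proteins. The Map1lc3b probe (mm9, chr8:124119924-124119983, plus strand) lies in the LC3B coding sequence, and the Ulk1 probe (mm9, chr5:111216232-111216623, minus strand) spans an intron in the part that codes for the C-terminal end of the protein.
Sqstm1 probe: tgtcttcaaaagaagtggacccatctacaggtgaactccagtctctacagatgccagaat
Map1lc3b probe: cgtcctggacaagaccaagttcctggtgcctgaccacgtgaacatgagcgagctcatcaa
Ulk1 probe: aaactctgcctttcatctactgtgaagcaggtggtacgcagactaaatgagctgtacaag

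Gabarapl1 and Ulk1 were the pair that M1 activation lowered in WT and not in KO cells on the main scale, and the 250 bases before their start sites are given for that reason. They are the first 250 bases of the RefSeq promoter windows (GRCm38.p6) at chr6:129532942-129533241 on the plus strand for Gabarapl1 and chr5:110810032-110810331 on the minus strand for Ulk1. Capitals mark a match to the interferon-gamma activated sequence TTCNNNGAA, searched on both strands, which begins 214 bases before the start of Gabarapl1.
Gabarapl1: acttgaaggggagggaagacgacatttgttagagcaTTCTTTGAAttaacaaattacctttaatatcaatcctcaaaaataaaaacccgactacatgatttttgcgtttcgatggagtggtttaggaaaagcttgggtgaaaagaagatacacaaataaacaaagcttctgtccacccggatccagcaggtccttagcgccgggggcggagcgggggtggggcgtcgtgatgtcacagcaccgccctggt
Ulk1: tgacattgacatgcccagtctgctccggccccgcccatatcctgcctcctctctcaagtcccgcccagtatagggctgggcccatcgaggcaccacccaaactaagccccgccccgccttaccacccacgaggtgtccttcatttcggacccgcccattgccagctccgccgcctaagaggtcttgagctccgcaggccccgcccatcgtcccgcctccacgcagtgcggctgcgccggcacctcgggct
Windows of 300 bases, which run from 250 before to 50 after the start, were found for 8 of the 10 genes. The same letters occurred in Gabarap (56 bases before the start) and Wipi1 (158 before), and in 8.30% of 32851 windows of all genes. A STAT6-type motif (TTC and GAA with 4 bases between them, in 6.95% of all windows) began 32 bases after the start of Gabarap. The antioxidant response element core TGACNNNGC (12.4% of windows) was found in Map1lc3b, 5 bases after the start, and the E-box core CACGTG (7.15%) in Atg5, 14 before the start. The windows of Sqstm1, Gabarapl2 and Ulk1 held none of the 8 motifs searched. The others were the CLEAR-type TCACGTGA (0.974%), the C/EBP-ATF type TGATGNAA (3.97%), the FOXO core GTAAACA (3.65%) and the ISRE core (GAAA, any 2 bases, GAAA, 3.44%), and these 4 were in none of the 8 windows. The E-box core lies within the CLEAR-type motif. These matches describe letters only.

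The largest genotype difference among the 10 genes was that of Gabarapl1 in M1 cells, 2.41-fold higher in KO. In M1, 5 of the 10 genes were higher and 1 was lower in KO than in WT, against 24% of all genes called higher, 19.8% called lower and 43.7% called in all. Such a count does not set the 10 genes apart from the background. The median difference over the 10 genes was 0.30 against 0.17 over all genes. The higher genes were the receptor Sqstm1, the ATG8 genes Map1lc3b, Gabarap and Gabarapl1 and the kinase Ulk1, and the lower one was Atg5. In each of these 6 the 4 KO arrays lay on one side of the 4 WT arrays, and the difference had the same sign in all 4 sets. The levels by array show the KO M1 arrays apart from every other group for Sqstm1, Map1lc3b and Gabarap.

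**Figure D1:**
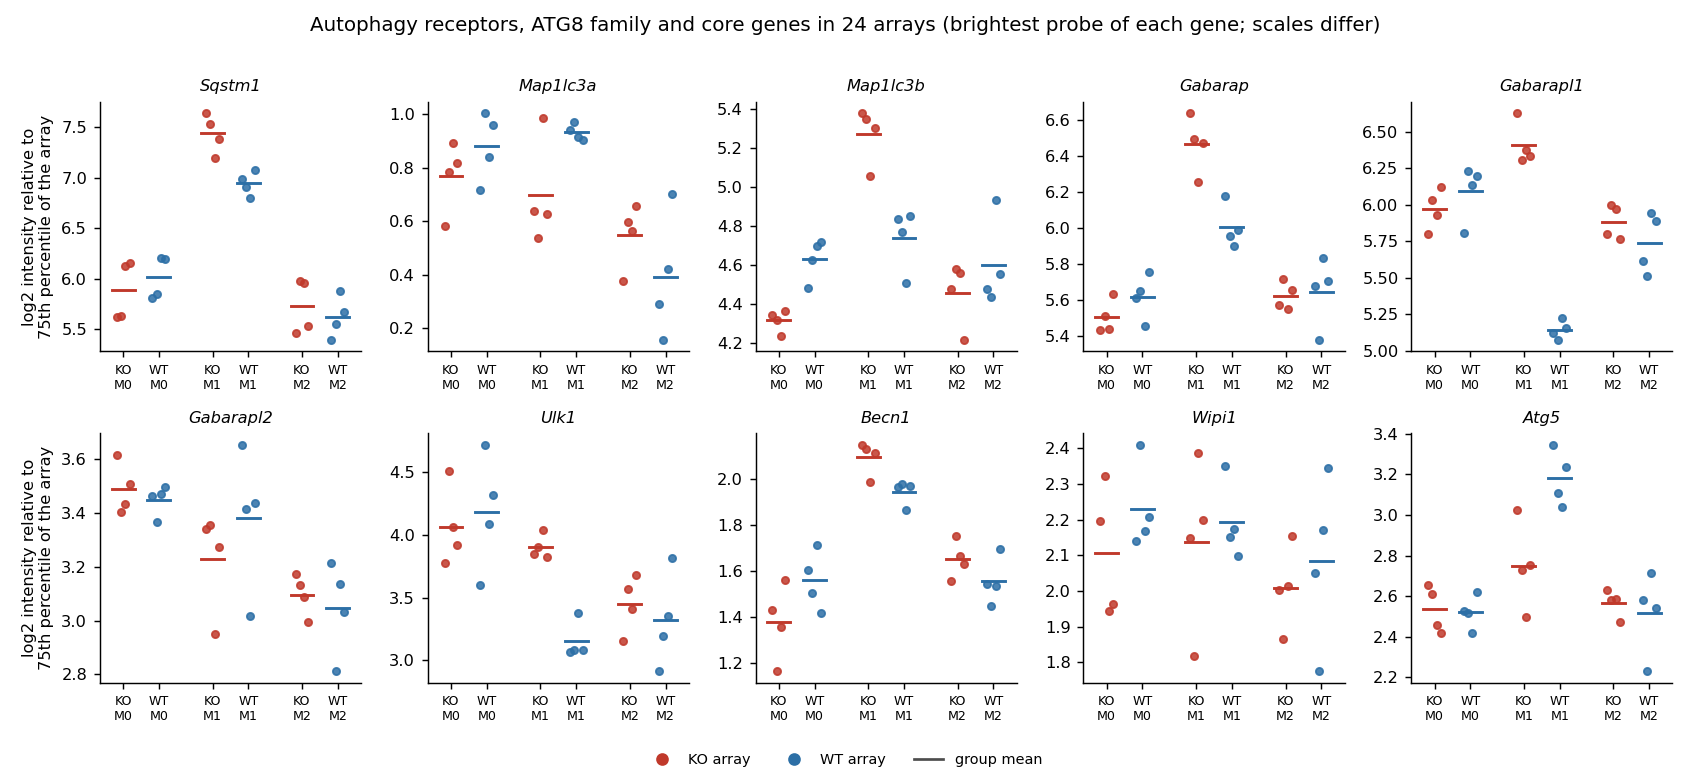
Level of each of the 10 genes on every array (log2 intensity relative to the 75th percentile, brightest probe, own scale per panel), KO left of WT in M0, M1 and M2, with points for arrays and lines for group means (n = 4). Gabarapl1 had a mean of 6.41 in KO M1 and 5.14 in WT M1, whereas the genotypes overlapped for 9 of the 10 genes in M0.

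The receptor Sqstm1 was at 7.64, 7.53, 7.20 and 7.38 in KO M1, against 6.99, 6.91, 6.80 and 7.07 in WT M1. Every KO array thus lay above every WT array, though the lowest KO value was close to the highest WT one. KO minus WT was 0.49 ± 0.16, a 1.41-fold difference (adjusted p = 0.0166). Within the sets it was 0.31 to 0.65. The call was lost without replicate 1 (0.44, adjusted p = 0.0693) or without replicate 2 (0.45, adjusted p = 0.0847). The coding probe shown above gave a larger difference, 1.06 ± 0.22 (adjusted p = 4.61e-04 over all probes), and a dim probe further down the transcript gave 1.06 ± 0.22 (adjusted p = 3.99e-04), so all 3 Sqstm1 probes were called higher.

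Among the ATG8 genes, Gabarapl1 differed most. It was at 6.63, 6.31, 6.37 and 6.33 in KO M1, against 5.12, 5.07, 5.22 and 5.15 in WT M1. The groups were separated by over 1 log2 unit, and KO minus WT was 1.27 ± 0.12 (2.41-fold, adjusted p = 2.98e-08), between 1.15 and 1.51 in the sets. The second Gabarapl1 probe gave 1.54 ± 0.12 (adjusted p = 3.43e-09). Map1lc3b, the gene of the usual autophagosome marker LC3B, was at 5.38, 5.35, 5.05 and 5.30 in KO M1, against 4.83, 4.77, 4.51 and 4.85 in WT M1. The groups did not overlap, and the difference was 0.53 ± 0.12 (1.45-fold, adjusted p = 0.00106). The coding probe of Map1lc3b gave nearly the same value, 0.53 ± 0.12, and a dim probe placed upstream of both gave 1.18 ± 0.33 (adjusted p = 8.66e-04 and 0.00536). Gabarap was at 6.64, 6.49, 6.25 and 6.47 in KO M1, against 6.18, 5.96, 5.90 and 5.99 in WT M1. Its groups did not overlap either, and the difference was 0.46 ± 0.11 (1.37-fold, adjusted p = 0.0016).

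The remaining pair of ATG8 genes was not called. Map1lc3a, which encodes the LC3A form, was at 0.64, 0.54, 0.98 and 0.63 in KO M1, against 0.94, 0.97, 0.92 and 0.90 in WT M1. Of the KO arrays, 3 lay below all WT arrays and the replicate of the set that stood apart lay above them, and KO minus WT was -0.24 ± 0.12 (adjusted p = 0.12). Without that set it was -0.34 (adjusted p = 0.0219), so that 5 genes were higher and 2 lower. Gabarapl2, which encodes GATE-16, was at 3.34, 3.36, 2.95 and 3.27 in KO M1, against 3.65, 3.41, 3.02 and 3.43 in WT M1. The groups overlapped, and the difference was -0.15 ± 0.12 (adjusted p = 0.351). The probes of Gabarapl2 did not share a sign, with -0.21 ± 0.13 at the second and 0.40 ± 0.20 at the third (adjusted p = 0.191 and 0.109), while the fourth probe was well above background on 1 of 24 arrays and was not tested.

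Of the genes that start and shape the autophagosome, Ulk1 was higher and Atg5 lower in KO. Ulk1 was at 3.85, 3.90, 4.04 and 3.83 in KO M1, against 3.07, 3.09, 3.38 and 3.08 in WT M1. The arrays did not overlap, and KO minus WT was 0.75 ± 0.21 (1.68-fold, adjusted p = 0.00629). Its coding probe gave 1.41 ± 0.26 (adjusted p = 1.18e-04). Atg5, whose protein is part of the enzyme that attaches ATG8 to lipid, was at 3.02, 2.73, 2.50 and 2.75 in KO M1, against 3.35, 3.11, 3.04 and 3.23 in WT M1. All KO arrays lay below the WT arrays, the nearest by little, and KO minus WT was -0.43 ± 0.12 (1.35-fold lower, adjusted p = 0.00481).

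Becn1, the gene of Beclin 1, was at 2.15, 2.13, 1.99 and 2.11 in KO M1, against 1.97, 1.98, 1.86 and 1.97 in WT M1. The KO arrays all lay above the WT arrays, but the difference of 0.15 ± 0.09 was not called (adjusted p = 0.208) and was -0.13 relative to the array median. Wipi1, the gene of a protein that reads the lipid mark, lay between 1.82 and 2.39 in KO M1, and all 4 WT M1 arrays fell within that range at the brightest Wipi1 probe (-0.05 ± 0.13, adjusted p = 0.772). A dimmer Wipi1 probe, placed further up the gene, was lower in KO by 0.51 on the log2 scale with no overlap (-0.51 ± 0.14, adjusted p = 0.00455), and the dimmest Wipi1 probe differed by 0.02 ± 0.13 (adjusted p = 0.921).

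How many of these genes were called depended on the scaling of the arrays. The median KO minus WT difference in M1 over all genes was 0.17 on the main scale, -0.05 after quantile normalization, -0.11 relative to the array median and 0.27 after normexp background correction. Gabarapl1 was called higher under every scaling (0.80 after quantile normalization, 0.98 relative to the median and 1.26 after normexp), and Atg5 was called lower under every scaling (-0.49, -0.72 and -0.42). Ulk1 kept its direction, with 0.59 (adjusted p = 0.0415), 0.47 (adjusted p = 0.062) and 0.73 (adjusted p = 0.00692). The calls for Sqstm1, Map1lc3b and Gabarap were lost both after quantile normalization (0.23, 0.12 and 0.01, adjusted p = 0.28, 0.346 and 0.909) and relative to the median (0.21, 0.25 and 0.17, adjusted p = 0.302, 0.133 and 0.202), although none changed sign. The coding probe of Sqstm1 was called higher under every scaling (0.66 after quantile normalization and 0.77 relative to the median), and that of Map1lc3b was called after quantile normalization (0.34) but not relative to the median (0.24). Under the same change of scale Gabarapl2 was called lower (-0.26 after quantile normalization and -0.43 relative to the median), and Map1lc3a relative to the median (-0.52). The counts of genes called higher and lower were thus 2 and 2 after quantile normalization, 1 and 3 relative to the median, and 5 and 1 after normexp. Of the 25825 genes, 11354, 11021 and 13580 were called under these scalings, in the same order.

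**Figure D2:**
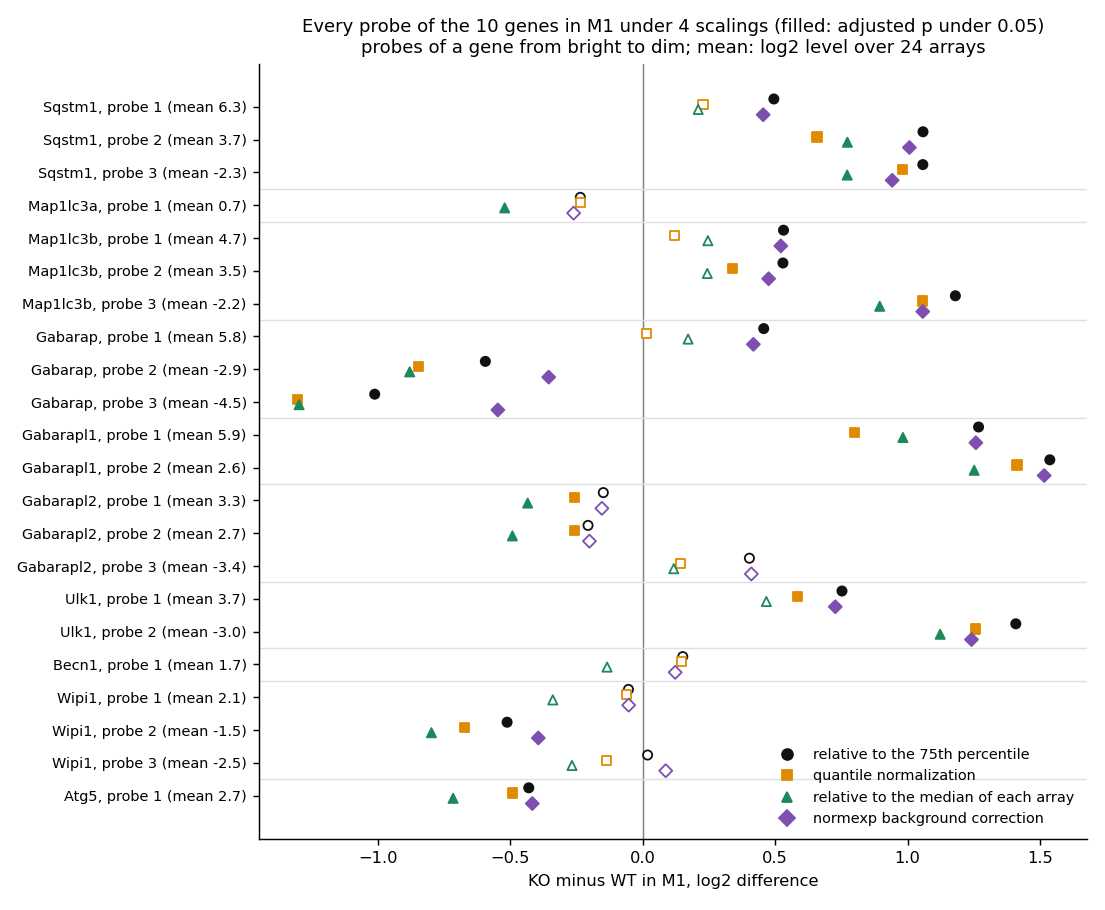
KO minus WT in M1 (log2 difference) at each of the 22 tested probes of the 10 genes under 4 scalings, filled where the adjusted p was under 0.05. The probes of Sqstm1, Map1lc3b, Gabarapl1 and Ulk1 lie right of 0 under every scaling, while the 3 Gabarap probes fall on both sides of it.

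The 3 probes of Gabarap went against each other. Beside the bright probe near the end of the transcript, a dim probe that covers the last 60 bases before the RefSeq start site (mm9, chr11:69804812-69804871, plus strand) was at -3.45, -3.61, -3.57 and -3.67 in KO M1, against -3.05, -2.82, -3.29 and -2.77 in WT M1. It was lower in all KO arrays (-0.59 ± 0.12, adjusted p = 3.32e-04). The remaining probe, dimmer still and placed between them, was also lower, with overlapping groups (-1.01 ± 0.25, adjusted p = 0.00234). The mean over the 3 probes, in which dim and bright weigh alike, was lower in KO (-0.38, adjusted p = 0.0291), so the direction given for Gabarap holds for its bright probe and for neither of the dim ones.

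M1 activation itself raised 5 of the 10 genes in KO cells and lowered none, and raised 4 and lowered 2 in WT cells, on the main scale. After quantile normalization it raised 4 and lowered 3 in KO and raised 3 and lowered 3 in WT, and relative to the array median it raised 5 and lowered 1 in KO. On the main scale, over all genes 32.4% were called higher and 23.3% lower in KO (55.8% in all), and 23.3% higher and 23% lower in WT (46.3% in all). The median difference over the 10 genes was 0.33 in KO and 0.08 in WT, against 0.25 and -0.01 over all genes. Sqstm1 rose most of the 10 genes. Its M0 level was 5.63, 5.63, 6.13 and 6.15 in KO and 5.81, 5.86, 6.21 and 6.19 in WT, so the M1 arrays given above lay above all M0 arrays of their genotype. M1 minus M0 was 1.55 ± 0.16 in KO (2.93-fold, adjusted p = 5.6e-08) and 0.93 ± 0.16 in WT (1.90-fold, adjusted p = 7.31e-05). After quantile normalization it was 0.82 in KO and 0.54 in WT, both called. At the coding probe Sqstm1 rose by 2.52 ± 0.22 in KO and 1.23 ± 0.22 in WT (adjusted p = 3.96e-09 and 9.40e-05).

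On the main scale Gabarapl1 moved in opposite directions in the genotypes. After quantile normalization Gabarapl1 did so at its second probe but not at its brightest. In M0 it was at 5.80, 6.03, 5.93 and 6.12 in KO and 5.81, 6.23, 6.14 and 6.19 in WT. From these overlapping M0 levels, M1 minus M0 was 0.44 ± 0.12 in KO (1.36-fold, adjusted p = 0.00353) and -0.95 ± 0.12 in WT (1.93-fold lower, adjusted p = 1.43e-06). The second probe gave 0.69 ± 0.12 and -1.04 ± 0.12 (adjusted p = 6.07e-05 and 5.87e-07). At the brightest probe the rise in KO became a fall of 0.31 after quantile normalization (-0.31, adjusted p = 0.0231). It was not called without replicate 1 (0.31, adjusted p = 0.0527), whereas the fall in WT was called under every scaling (-1.14 to -0.85). At the second probe the rise in KO was called under every scaling (0.34 to 0.69). After quantile normalization that probe gave 0.34 in KO and -1.20 in WT (adjusted p = 0.0278 and 1.38e-07).

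For Ulk1, M1 minus M0 was -0.16 ± 0.21 in KO (adjusted p = 0.54) and -1.03 ± 0.21 in WT (2.04-fold lower, adjusted p = 3.98e-04). Its M0 levels spread widely, at 3.78, 4.51, 4.06 and 3.92 in KO and 3.60, 4.72, 4.09 and 4.32 in WT, and all WT M1 arrays lay below them. The coding probe of Ulk1 rose by 0.92 ± 0.26 in KO and fell by 0.76 on the log2 scale in WT (-0.76 ± 0.26, adjusted p = 0.00408 and 0.0194). After quantile normalization Ulk1 was also called lower in KO at its brightest probe (-0.64, adjusted p = 0.0207). Its coding probe was still called higher in KO (0.94, adjusted p = 0.00115).

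Map1lc3b was raised in KO (0.96 ± 0.12, 1.94-fold, adjusted p = 7.7e-07) and was not called in WT (0.11 ± 0.12, adjusted p = 0.489). In M0 it was at 4.34, 4.32, 4.23 and 4.36 in KO and 4.48, 4.62, 4.70 and 4.71 in WT, so the KO arrays started below the WT arrays. At the coding probe of Map1lc3b M1 minus M0 was 0.98 ± 0.12 in KO and 0.15 ± 0.12 in WT (adjusted p = 3.84e-07 and 0.308). The dim Map1lc3b probe was instead not called in KO (0.41 ± 0.33, adjusted p = 0.301) and called lower in WT (-0.82 ± 0.33, adjusted p = 0.0435). On the main scale Gabarap rose in both genotypes at its brightest probe, by 0.96 ± 0.11 in KO (adjusted p = 1.78e-07) and 0.39 ± 0.11 in WT (adjusted p = 0.00557). Becn1 rose in both too, by 0.72 ± 0.09 in KO and 0.38 ± 0.09 in WT (adjusted p = 1.49e-06 and 0.00207). After quantile normalization the KO differences of Map1lc3b and Gabarap at their brightest probes were 0.27 and 0.21 (adjusted p = 0.0228 and 0.024). At the brightest probe the Gabarap call in WT was lost without replicate 1 (0.33, adjusted p = 0.0654) and after quantile normalization (0.18, adjusted p = 0.0592). Atg5 was called higher in WT and not in KO, at 0.21 ± 0.12 in KO (adjusted p = 0.127) and 0.66 ± 0.12 in WT (1.58-fold, adjusted p = 8.46e-05). Map1lc3a, Gabarapl2 and Wipi1 differed by -0.26 to 0.05 at their brightest probes, with no call in either genotype on the main scale. Gabarapl2 was called lower after quantile normalization in KO (-0.65, adjusted p = 6.91e-06) and WT (-0.28, adjusted p = 0.022), and relative to the median in KO (-0.34, adjusted p = 0.0393). The third, dim Gabarapl2 probe was called lower on the main scale in both (-0.86 ± 0.20 in KO and -1.14 ± 0.20 in WT, adjusted p = 9.74e-04 and 8.32e-05). The dimmer Wipi1 probe described above fell in both (-1.23 ± 0.14 in KO and -0.74 ± 0.14 in WT, adjusted p = 1.63e-07 and 1.57e-04). The dimmest Wipi1 probe went the other way, at 0.40 ± 0.13 in KO and 0.30 ± 0.13 in WT (adjusted p = 0.011 and 0.0584).

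**Figure D3:**
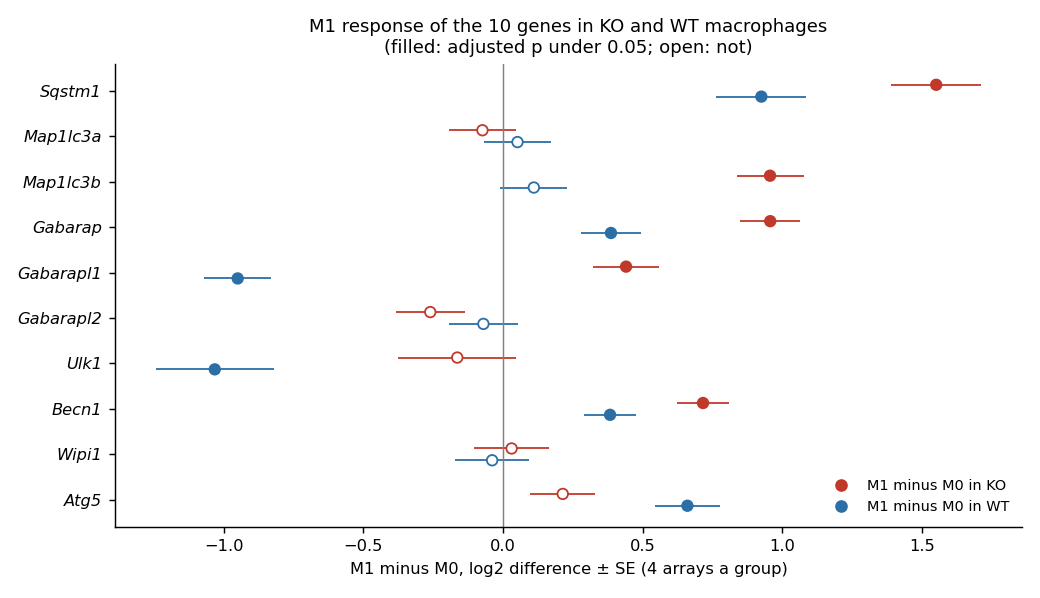
M1 minus M0 (log2 difference ± SE, 4 arrays a group) of the 10 genes, KO above WT in each row, filled where the adjusted p was under 0.05. Gabarapl1 lies at 0.44 in KO and -0.95 in WT, and Atg5 at 0.21 in KO and 0.66 in WT.

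The difference between the genotypes in this response was tested directly. It passed for 6 of the 10 genes, 5 with a larger value in KO and 1 with a smaller one, against 15.7% and 13.5% of all genes and 29.2% in all. The median difference of the response was 0.45 over the 10 genes and 0.16 over all genes. It was 1.39 ± 0.17 for Gabarapl1 (adjusted p = 2.78e-06), 0.87 ± 0.30 for Ulk1 (adjusted p = 0.033), 0.85 ± 0.17 for Map1lc3b (adjusted p = 6.08e-04), 0.63 ± 0.23 for Sqstm1 (adjusted p = 0.044) and 0.57 ± 0.15 for Gabarap (adjusted p = 0.00688). For Atg5 it was -0.45 ± 0.16 (adjusted p = 0.0471), and for Becn1 0.33 ± 0.13 (adjusted p = 0.0682), which was not called. At the dim Gabarap probes it was -0.44 ± 0.17 and -0.59 ± 0.35 (adjusted p = 0.0529 and 0.235), with neither called. The calls for Sqstm1 and Atg5 were lost whichever replicate was left out, that for Ulk1 without replicate 2, 3 or 4, and that for Gabarap without 1 or 4, so that 2 to 3 remained, among them Gabarapl1 and Map1lc3b each time. Without the set that stood apart 4 were called, the calls for Sqstm1 (0.63, adjusted p = 0.0799) and Atg5 (-0.38, adjusted p = 0.137) being lost. After quantile normalization 3 genes were called (Gabarapl1 at 0.83, Gabarapl2 at -0.37 and Atg5 at -0.57), and relative to the median 3 (Gabarapl1, Map1lc3b at 0.66 and Atg5 at -0.63).

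On the main scale those of the 10 genes that were called with IL-4 activation fell. In KO 1 gene was lower and 0 higher, and in WT 3 were lower and 0 higher, against 5.61% lower and 6.56% higher of all genes in KO (12.2% in all) and 9.79% and 5.3% in WT (15.1% in all). Relative to the array median the counts turned to 0 lower and 1 higher in KO and 2 lower and 0 higher in WT. The KO gene was then Becn1, at 0.43 (adjusted p = 0.00488) against 0.27 ± 0.09 on the main scale (adjusted p = 0.0665), while in WT Becn1 was at -0.01 ± 0.09 on the main scale. The median difference on the main scale was -0.09 in KO and -0.25 in WT, against -0.06 and -0.13 over all genes. After quantile normalization Sqstm1 and Gabarapl1 were called lower in WT too (-0.49 and -0.43, adjusted p = 0.0493 and 0.0129 over all probes). So was Ulk1 in KO (-0.76, adjusted p = 0.0297). On the main scale the dim Sqstm1 probe was called lower in WT (-0.70 ± 0.22, adjusted p = 0.0326), and the brightest was not (-0.39 ± 0.16, adjusted p = 0.114). Gabarapl2 fell in both, by 0.39 and 0.40 on the log2 scale. It was at 3.17, 3.13, 3.09 and 2.99 in KO M2, against 3.61, 3.40, 3.43 and 3.51 in KO M0, and at 3.21, 2.81, 3.14 and 3.03 in WT M2, against 3.46, 3.37, 3.47 and 3.50 in WT M0. No M2 array reached an M0 array of its genotype, and M2 minus M0 was -0.39 ± 0.12 in KO and -0.40 ± 0.12 in WT (adjusted p = 0.0421 and 0.033). A second Gabarapl2 probe gave -0.48 ± 0.13 and -0.50 ± 0.13 (adjusted p = 0.0142 and 0.0101). The KO call was lost whichever replicate was left out, the WT call without replicate 1, 2 or 4, and both relative to the array median (-0.24 and -0.30).

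Ulk1 was at 3.16, 3.57, 3.41 and 3.68 in KO M2 and 2.91, 3.19, 3.36 and 3.82 in WT M2. Its M0 values were spread so that the WT groups overlapped, and M2 minus M0 was -0.61 ± 0.21 in KO (adjusted p = 0.064) and -0.86 ± 0.21 in WT (adjusted p = 0.00779). Within the sets Ulk1 was lower in M2 in all 4, at -0.83 to -0.49 in KO and -0.96 to -0.69 in WT, and with the set as a block it was called in KO too (adjusted p = 0.00193, and 7.48e-05 in WT). The WT call was lost without replicate 2 or 3. Map1lc3a was at 0.38, 0.60, 0.56 and 0.66 in KO M2, against 0.58, 0.78, 0.89 and 0.82 in KO M0, and at 0.29, 0.16, 0.42 and 0.70 in WT M2, against 0.72, 1.00, 0.84 and 0.96 in WT M0. It was called in WT (-0.49 ± 0.12, adjusted p = 0.00828), where the groups did not overlap, and not in KO (-0.22 ± 0.12, adjusted p = 0.262). Without replicate 2 the WT call was lost.

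The brightest Gabarap probe hardly moved with IL-4 (0.12 ± 0.11 in KO and 0.03 ± 0.11 in WT, adjusted p = 0.54 and 0.894), but the probe before the RefSeq start did. That probe was at -2.13, -2.34, -2.36 and -2.24 in KO M2, against -2.95, -3.12, -3.22 and -3.26 in KO M0, and at -2.19, -2.40, -2.00 and -2.24 in WT M2, against -3.15, -2.91, -2.98 and -2.91 in WT M0. Every M2 array lay above every M0 array of its genotype. M2 minus M0 was 0.87 ± 0.12 in KO and 0.78 ± 0.12 in WT (adjusted p = 4.15e-05 and 1.15e-04 over all probes), and 0.68 to 1.03 over both genotypes under the 4 scalings, each time called. On the main scale it was the only one of the 22 probes called higher with IL-4 (relative to the array median the Becn1 probe was too, in KO), and it did not differ between the genotypes by call in M2 (-0.06, adjusted p = 0.999).

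Outside M1 no genotype difference was called for the 10 genes by limma. In M0 0 of the 10 genes were called higher (0.00774% of all genes) and 0 lower (0.0503%, and 0.0581% in all). At an unadjusted p under 0.05, 740 of the 25825 genes passed, and 1 of the 10 did. That gene was Map1lc3b, at -0.31 ± 0.12 with all KO arrays below the WT arrays (adjusted p = 1.00). In M2 0 were called higher (0.0194% of all genes) and 0 lower (0.0271%, and 0.0465% in all), and 0 passed unadjusted, against 1192 of all genes. limma with a trend and robust spread also called 0 in each. KO minus WT ranged from -0.31 to 0.04 in M0 and from -0.14 to 0.15 in M2 at the brightest probes, with median -0.12 and 0.07 against -0.01 and 0.07 over all genes. Gabarapl1, for example, was at 5.80, 6.00, 5.97 and 5.76 in KO M2 and 5.61, 5.51, 5.94 and 5.89 in WT M2, and Sqstm1 was at 5.46, 5.98, 5.95 and 5.54 in KO M2 and 5.40, 5.56, 5.88 and 5.67 in WT M2. The groups overlapped in both. The difference of the IL-4 response between the genotypes was called for 0 of the 10 genes and 0% of all genes, with 0 of the 10 and 281 of all genes at an unadjusted p under 0.05.

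Around these 10 genes, 67 others of the pathway in 7 groups were measured, and in M1 17 of them were higher and 18 lower in KO, against 24% and 19.8% of all genes, with a median of 0.13 against 0.17. These shares are near those of all genes. Relative to the array median the counts were 9 and 27. On that scale the median over all genes was itself -0.11, and 11021 of 25825 genes were called either way. The other cargo receptors held 7 of the higher and 5 of the lower genes among 18. Optn, which encodes optineurin, a receptor for ubiquitin-coated bacteria and mitochondria, showed the largest difference of the 67. It was at 3.40, 3.40, 3.36 and 3.33 in KO M1, against -0.74, -0.48, -0.45 and -0.80 in WT M1. KO minus WT was 3.99 ± 0.19 (15.9-fold, adjusted p = 1.68e-11), and a second Optn probe gave 5.10 ± 0.22 (34.3-fold). In the other states its genotypes overlapped, with means of -0.11 in KO M0, -0.10 in WT M0, 0.11 in KO M2 and -0.31 in WT M2. M1 minus M0 was thus 3.48 ± 0.19 for Optn in KO (adjusted p = 8.83e-12) and -0.52 ± 0.19 in WT (adjusted p = 0.0324), and the difference of the response was 4.00 ± 0.27 (adjusted p = 1.04e-08). After quantile normalization the genotype difference of Optn in M1 was 3.73, relative to the median 3.70, and without the set that stood apart 4.05.

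The ubiquitin receptors Nbr1 and Tax1bp1 stood higher in KO M1 as well. Nbr1, a receptor that works beside p62, was at 1.02, 1.00, 0.96 and 0.98 in KO M1, against -0.34, -0.16, -0.36 and -0.13 in WT M1. The gap was over 1 log2 unit (1.24 ± 0.15, adjusted p = 8.58e-07), and its other probes gave 1.19 ± 0.40 and 0.49 ± 0.50 (adjusted p = 0.018 and 0.446). Tax1bp1, a receptor for bacteria and protein aggregates, was at 6.08, 5.65, 5.66 and 5.70 in KO M1, against 4.79, 4.64, 4.51 and 4.52 in WT M1. These groups were also well apart (1.16 ± 0.11, adjusted p = 3.04e-08), and 3 Tax1bp1 probes gave 1.16 to 1.31. Unlike Nbr1, Tax1bp1 rose with M1 activation in both genotypes, by 2.64 ± 0.11 in KO and 1.29 ± 0.11 in WT (adjusted p = 2.03e-13 and 6.55e-09). Stbd1, a glycogen receptor, was higher in KO M1 by 1.42 ± 0.29, while the receptors of the endoplasmic reticulum and mitochondria Retreg1, Fkbp8 and Fundc1 were lower (-1.48 ± 0.13, -0.73 ± 0.12 and -0.60 ± 0.10, adjusted p = 7.5e-09, 2.82e-05 and 5.72e-05).

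**Figure D4:**
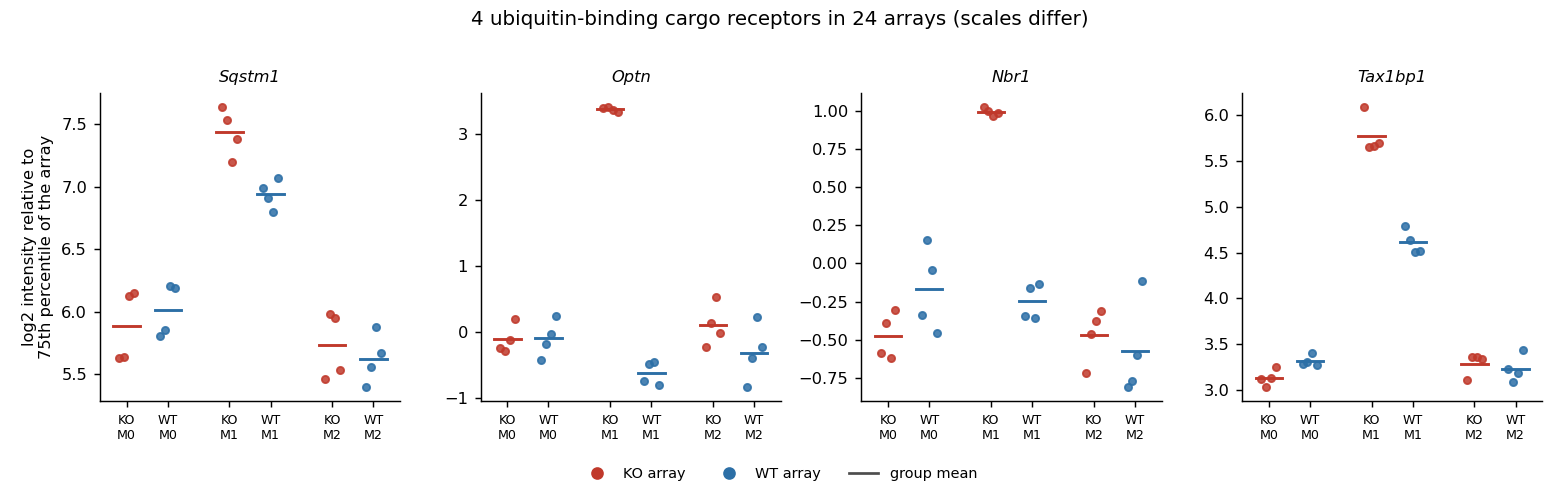
Level of 4 ubiquitin-binding receptor genes on every array (log2 intensity relative to the 75th percentile, own scale per panel), KO left of WT, with points for arrays and lines for means (n = 4). In M1 the KO arrays of Optn lie between 3.33 and 3.40 and the WT arrays between -0.80 and -0.45, and on this scale all 4 genes are called higher in KO M1.

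The rest of the pathway was split in M1, where 24% of all genes were called higher and 19.8% lower. Of the partners of Ulk1 in the initiation complex, Atg13 was 2.14-fold higher in KO and the related kinase Ulk2 1.85-fold lower (adjusted p = 1.75e-05 and 5.73e-04), 1 and 1 of 4. Of the partners of Becn1, Atg14 was higher (0.72 ± 0.13) and the inhibitor Rubcn and the kinase subunit Pik3r4 lower (-0.83 ± 0.10 and -0.59 ± 0.10), 1 and 2 of 7. Of the genes near Wipi1, the lipid transfer gene Atg2a and Wdr45 were higher (1.08 ± 0.20 and 0.51 ± 0.16), 2 and 0 of 6. Among the enzymes that process and attach ATG8, the partner of Atg5, Atg12, and Atg3 were higher (0.86 ± 0.12 and 0.58 ± 0.12), and Atg10, Atg4b and Atg4d lower (-0.89 ± 0.11, -0.59 ± 0.12 and -0.42 ± 0.12), 2 and 4 of 10. Averaged over its probes, Atg4b was at 0.031. Atg12 and Atg5 are joined in one conjugate by Atg10, and their RNAs thus differed in opposite directions. Of the fusion genes, Snap29 and Rab7 were higher (0.98 ± 0.21 and 0.39 ± 0.13) and Plekhm1 and Stx17 lower (-1.04 ± 0.20 and -0.75 ± 0.14), 2 and 2 of 9.

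Regulators were called higher in 2 and lower in 4 of 13 cases, against 24% and 19.8% of all genes. Tfeb, the transcription factor for lysosome and autophagy genes, and Mtor were higher (0.56 ± 0.15 and 0.48 ± 0.12, adjusted p = 0.004 and 0.00177). Prkaa1, the catalytic subunit of the energy sensor AMPK, the factor Mitf and Keap1 were lower (-1.56 ± 0.11, -1.28 ± 0.15 and -0.51 ± 0.09, adjusted p = 5.04e-10, 4.18e-07 and 1.43e-04). For Prkaa1 a second probe gave -0.40 ± 0.20 (adjusted p = 0.112). In M0 and in M2, 0 of the 67 genes differed between the genotypes by call.

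**Figure D5:**
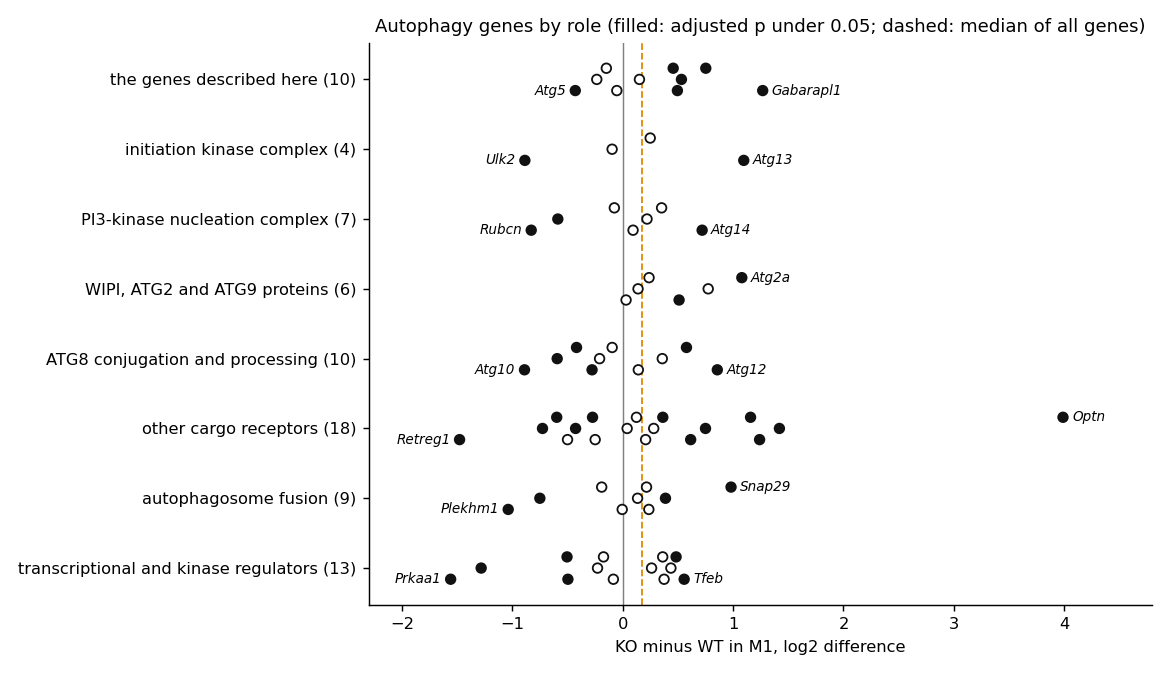
KO minus WT in M1 (log2 difference) of the 10 genes and of the 67 others by role, with the number of genes in brackets, filled where the adjusted p was under 0.05, and a dashed line at the median of all genes (0.17). Most groups spread to both sides of 0, and Optn lies at 3.99, apart from every other gene shown.

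With M1 activation 28 of the 67 were higher and 21 lower in KO (32.4% and 23.3% of all genes), and 17 and 23 in WT (23.3% and 23%). Beside the genes above, Bnip3, a mitochondrial receptor, rose in both (2.67 ± 0.20 in KO and 2.65 ± 0.20 in WT), as did Vamp8 (0.76 ± 0.10 and 0.81 ± 0.10), a fusion protein. Ulk2 and the ferritin receptor Ncoa4 fell in both (-2.14 ± 0.19 and -1.83 ± 0.22 in KO, -1.45 ± 0.19 and -1.39 ± 0.22 in WT). Prkaa1 was called in opposite directions at its brightest probe (-1.18 ± 0.11 in KO and 0.38 ± 0.11 in WT, adjusted p = 8.00e-09 and 0.00647). Its second probe was called in neither genotype (-0.09 ± 0.20 in KO and 0.20 ± 0.20 in WT, adjusted p = 0.729 and 0.444). With IL-4, 4 were higher and 10 lower in KO (6.56% and 5.61% of all genes), and 2 and 18 in WT (5.3% and 9.79%). Retreg1 fell most in both (-1.69 ± 0.13 and -1.99 ± 0.13), followed by Stbd1 (-1.18 ± 0.29 and -1.32 ± 0.29) and Wdfy3 (-1.04 ± 0.20 and -1.05 ± 0.20), with Ulk2 (-0.85 ± 0.19 and -1.06 ± 0.19) and Rubcn (-0.69 ± 0.10 and -0.89 ± 0.10) also lower. Bcl2l13 was higher in both (0.57 ± 0.12 and 0.46 ± 0.12).

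Markers of other cells were examined because the cultures were measured in bulk, where fewer cells of a type and less RNA per cell cannot be told apart. The summed level of 10 neutrophil markers, in units of the 75th percentile, was 47.4 to 122 in KO M1 and 13.4 to 48.4 in WT M1, with 10 of 10 detected in KO M1 and 9 of 10 in WT M1. Within that list 3 genes were called higher and 1 lower in KO, and the defining marker Ly6g was at -0.81 ± 0.94 in KO M1 and 1.89 ± 0.71 in WT M1 (mean ± SD, n = 4). Dendritic cell markers summed to 43.7 to 67.1 in KO M1 and 24.5 to 42.4 in WT M1 (5 of 6 tested), and mast cell and basophil markers to 0.909 to 2.29 in KO M1 and 0.231 to 0.540 in WT M1, with Cma1 well above background on 0 arrays of either. Macrophage markers summed to 415 to 625 in KO M1 and 468 to 578 in WT M1, and those of B cells, T and NK cells and fibroblasts overlapped between the genotypes. The part of these shifts in the M1 differences of the 10 genes was not tested.

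Likeness was measured as the root mean square difference of mean-centred levels over the 24 arrays, among 11507 genes well above background on all of them. For the genes whose group means spanned at least 1 log2 unit, the nearest neighbours were named. The nearest to Sqstm1 (span 1.81) were Hspbap1, Por and Gna13 (0.19, 0.19 and 0.20), and the nearest to Gabarapl1 (span 1.27) were Nop53, Arfgef2 and Gps2 (0.13, 0.13 and 0.15). Those of Ulk1 (span 1.03) were Mapk1ip1, Plekhd1 and Zfp358 (0.17, 0.20 and 0.20). None of the 10 genes was among the neighbours named here.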

How the data were processed

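RNA from 24 macrophage cultures was labelled with Cy3 and hybridised to 1-colour Agilent mouse arrays, per the labels' protocols. Each array's spots were deposited as processed intensity in linear units, background-subtracted and detrended within the array but not normalized between arrays, per the file headers. The file headers name Agilent's Feature Extraction software in version 10.7.3.1, while the submitters' processing notes name version 9.1. Probe coordinates are on mm9, per the file headers. A deposited table of values for these arrays was not used, since its identifiers do not belong to the probes. Sequences before start sites came from RefSeq (GRCm38.p6).

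From these intensities, spots flagged as outliers were dropped, repeat spots were averaged per probe, and log2 values were taken relative to each array's 75th percentile over the 59305 gene spots; no log2 values deposited by the authors were used. Probes well above background on at least 4 of 24 arrays were kept (38856 of 56605), and each gene was represented by its brightest probe (25825 genes). limma 3.58.1 under R 4.3.3 (statmod 1.5.0) fitted 1 mean per group, with 18 residual and 1.99 prior degrees of freedom. There were 9 comparisons and 17 alternatives. Simulated arrays for KO minus WT in M1 (36911 probes) gave back 4, 21, 40 and 44 of 50 changes of 0.5, 1, 1.5 and 2 log2 units at 10 false calls. In them KO M1 equalled WT M1 except at these changed probes, whereas 11297 of 25825 genes were called in the real comparison. The adjusted p-value is stricter where fewer genes differ, so these numbers do not give the sensitivity of the real M1 comparison. The number of arrays limits the precision.

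The 10 genes were all named. Of the other pathway genes, up to 3 rises and 3 falls of each list that passed the test were eligible for naming in each comparison, and neighbours in level were the 3 nearest of each gene spanning 1 log2 unit or more. Tax1bp1 was named under the difference of the M1 response, and its M1 value was added after being seen. The genes, lists and tests were chosen with earlier results of these data known.

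Same-numbered KO and WT arrays of a state deviated together in all 12 pairs (correlation 0.17 to 0.85). The best partner had another number, however, for M0 replicates 3 and 4, M1 replicate 1 and M2 replicates 2 and 3. From the data, the replicate number thus pairs the arrays within a state only in part. Across all 60 pairs of groups with a shared number the correlation went down to -0.46, so the number does not pair the states. The sets did link the groups. Over 60 pairs of arrays of the same set the median correlation was 0.32 and the lowest 0.081, against a median of -0.09 between sets. The main fit held no block. With the set as a block 13926 genes were called for KO minus WT in M1, against 11297. No 2 arrays were alike beyond a correlation of 0.992.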

Additional observations from a re-analysis of the deposited data

Results flagged for a closer look

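Of 60 groups of 4 arrays (10 genes in 6 groups), 2 held an array far from the other 3, and chance marks about 1 group in 20. In WT M1 replicate 3 was the lowest for Becn1, at 1.86 with the next at 1.97 and the highest at 1.98. The same array was the highest for Ulk1, at 3.38 with the next at 3.09 and the lowest at 3.07, and it belongs to the set that stood apart.

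The M1 response differed between the genotypes by the test of the difference itself for 6 of the 10 genes, against 29.2% of all genes. The count was 3 after quantile normalization, 3 relative to the array median and 2 to 3 without single replicates, the calls for Sqstm1 and Atg5 being lost whichever replicate was left out. KO minus WT of the response was 1.39 for Gabarapl1, 0.87 for Ulk1, 0.85 for Map1lc3b, 0.63 for Sqstm1, 0.57 for Gabarap and -0.45 for Atg5. Among the other cargo receptors it was 4.00 for Optn, 1.54 for Nbr1, 1.34 for Tax1bp1, -1.55 for Retreg1, -0.60 for Fundc1 and -0.48 for Fkbp8 (adjusted p = 1.04e-08, 1.13e-05, 1.46e-06, 1.44e-06, 0.00292 and 0.0317).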

How the results depend on the processing

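Of the repeated single values of the 10 genes, 1378 kept direction and call, 36 gained a call, 53 lost it and 3 reversed. The reversals were Gabarapl1 with M1 in KO after quantile normalization (-0.31), and Gabarap averaged over its probes in KO minus WT in M1 (-0.38) and in the difference of the M1 response (-0.16), where the dim probes run against the bright one. Among the other pathway genes 7 reversed: Atg16l1 with M1 in WT when a probe had to be above background on each array (-0.45), and, averaged over probes, Atg16l1 (-0.16), Atg2b (-0.15) and Rubcn (0.33) with M1 in WT, and Atg4b in KO minus WT in M1 (0.031), with M1 in KO (0.043) and in the difference of the M1 response (0.12), the cause not tested. The number of the 10 genes called with IL-4 in KO was 1 (lower), against 1 (higher, Becn1) relative to the median, 2 after quantile normalization, 3 with all arrays required above background, 2 with the replicate block, 3 with the set as a block, 2 without the set of left-over pairs, 3 with a trend and robust spread, and 0 to 0 without single replicates. In WT it was 3, against 5 after quantile normalization, 5 with the slide and 5 with the set as a block, and 0 to 2 without single replicates, where 0 came without replicate 2. For the difference of the M1 response it was 6, against 3 after quantile normalization, 3 relative to the median, and 2 to 3 without single replicates. The replicate block left the counts for KO minus WT at 0, 6 and 0 in M0, M1 and M2, and a replicate block within each state, added after the data were seen, gave the same 0, 6 and 0. Of the 67 other genes, 14 were called with IL-4 in KO, against 4 without replicate 2, 8 without replicate 3, 9 without replicate 4 and 9 averaged over probes. In WT 20 were called, against 32 with the set as a block, 9 without replicate 2 and 10 without replicate 3. For the difference of the M1 response 28 were called, against 18 without replicate 1 and 16 without replicate 3. The calls over all genes moved as well. With IL-4 in KO they were 3141, against 5399 with the set as a block and 1530 to 2244 without single replicates. In WT they were 3896, against 6460 and 2164 to 2914 in the same order. For the difference of the M1 response they were 7542, against 5506 to 6394 without single replicates. Dim signal limits the probes of lowest level, and the deposited files do not say which scale is right for the dim KO M1 arrays.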
